A study of Mus musculus with 2 samples.

Results

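Heparan sulfate is built and trimmed by a short series of enzymes, and the genes of 10 of them, Ext1, Ext2, Ndst1, Ndst2, Glce, Hs2st1, Hs3st1, Hs6st1, Sulf1 and Sulf2, were followed in the kidney of Iah1-knockout and wild-type mice. They were taken in pathway order, each by its brightest probe set that carries exactly 1 gene symbol on the platform. Such a probe set was used for 9 of the 10 genes, out of 22180 genes in all, and Ndst1 was not analysed here. The group was chosen by its Sulf2 value, which was higher in the knockout, so the differences between genotypes describe these genes and are not tested.

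Kidney RNA of males was compared between a systemic Iah1 knockout (Iah1-KO) and the wild type (Iah1-WT). Iah1 is named for its likeness to a yeast esterase that cleaves isoamyl acetate. Both genotypes had received a high-fat diet for 12 weeks from 6 weeks of age, were caged singly and went without food for 4 hours before the tissue was taken. Each genotype was measured on 1 Affymetrix array loaded with RNA pooled from 3 mice, called the wild-type pool (Iah1-WT) and the knockout pool (Iah1-KO). The spread between mice is therefore not known, no p-value or replicate error can be given, and every difference is one between 2 pools. The sources used here give neither the allele nor the strain, nor whether the wild types were littermates.

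Heparan sulfate is a long sugar chain carried by cell-surface and basement membrane proteins. The chain is polymerised in the Golgi, then partly stripped of acetyl groups, epimerised and sulfated at several positions, and the resulting sulfate pattern sets which growth factors, morphogens and lipoproteins the chain holds. Outside the cell the 2 endosulfatases Sulf1 and Sulf2 remove 6-O-sulfate groups from finished chains. In the kidney the chains belong to the glomerular basement membrane and the tubular surface, and mice without Hs2st1 form no kidneys.

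Sulf2 was the member in which the pools differed most, and its start sites are shown for that reason. RefSeq places 2 starts of Sulf2 on the minus strand of chromosome 2 (GRCm38.p6), and each window below runs from 250 bases before a start to 50 bases after it, 5′ to 3′ on the strand of the gene. Capitals mark E-boxes (CANNTG) and GC boxes (GGGCGG, which reads as CCGCCC where it lies on the opposite strand). The upstream window is chr2:166155634-166155933 and the downstream window chr2:166155236-166155535.
Sulf2 upstream start: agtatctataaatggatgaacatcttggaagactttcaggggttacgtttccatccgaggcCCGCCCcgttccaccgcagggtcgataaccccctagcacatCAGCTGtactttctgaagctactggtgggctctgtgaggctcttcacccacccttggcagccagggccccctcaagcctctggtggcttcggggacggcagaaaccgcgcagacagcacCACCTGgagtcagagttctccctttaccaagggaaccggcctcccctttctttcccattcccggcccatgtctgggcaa
Sulf2 downstream start: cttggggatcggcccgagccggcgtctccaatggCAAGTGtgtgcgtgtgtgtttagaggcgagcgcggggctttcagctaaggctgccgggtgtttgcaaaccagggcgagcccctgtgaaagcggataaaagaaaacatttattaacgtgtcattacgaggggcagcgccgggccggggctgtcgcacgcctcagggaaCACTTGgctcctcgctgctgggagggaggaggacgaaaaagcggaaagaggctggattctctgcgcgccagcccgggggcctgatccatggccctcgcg

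The upstream window held 1 GC box, 189 bases before the start, and E-boxes 148 and 29 bases before it. The downstream window held E-boxes 216 and 49 bases before the start and no GC box. Both strands were searched for these motifs as well as for CCAAT, for the TATA sequence TATAAA and for the spaced pair TTCNNNGAA, and the matches in the Sulf2 windows did not overlap one another. CCAAT was present once, in the downstream window, TATAAA once, in the upstream window 244 bases before the start, and TTCNNNGAA in neither. Among all 32851 RefSeq start windows, 72.3% held an E-box, 35.7% a GC box, 37.4% CCAAT, 13.6% TATAAA and 8.30% TTCNNNGAA. Windows were matched for 7 of the 10 genes, 8 windows in all. Of these 8, 5 held a GC box (those of Ndst2, Glce, Hs2st1 and Hs6st1 and the upstream one of Sulf2), and 3 held an E-box (Ext2 and both of Sulf2). G and C made up between 58% (Ext2 and upstream Sulf2) and 78% (Hs6st1) of the member windows, against a median of 52.7% over all windows. The array measured no binding or methylation at these sites, so the letters are given as context only.

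All values below are log2 values from RMA, which puts both arrays on a common distribution, and a difference is the knockout value minus the wild-type value. Genes whose higher value was at least 6 on this scale were taken as expressed, a floor that 7671 of the 22180 genes met. The median difference of these genes was 0.01, and the middle 95% lay between -0.30 and 0.35. Of them 52.4% were above 0 and 47.6% below. Iah1 itself was at 9.09 in the wild-type pool and 3.60 in the knockout pool, below the median of all probe sets there, in the direction of the labels. All 12 listed proximal tubule markers were above the floor, with values of at least 10.34 in the wild-type pool. For each gene the spread of differences among the 500 genes of nearest mean expression is given as a robust SD. It describes genes, not mice.

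Sulf2, the extracellular 6-O-endosulfatase, stood at 5.93 in the wild-type pool and 6.52 in the knockout pool (probe set 17394538). The knockout pool was higher by 0.59, a 50.3% higher signal, where genes of similar expression had a robust SD of 0.16. Of the 7671 expressed genes 17 were higher by at least 1.5-fold, and Sulf2 was the last of the 17. Sulf2 met the expression floor in the knockout pool alone, and a gene that enters through its higher value is favoured to differ. Sulf2 has 1 probe set on this table, so no other probe set bears on its difference.

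Sulf1, its paralog with the same substrate, was at 4.38 in the wild-type pool and 4.47 in the knockout pool. Both values were below the floor, and the difference of 0.09 was within the robust SD of 0.29 at that expression. The paralogs' differences thus lay 0.49 apart. Hs6st1, which adds the 6-O-sulfate groups that the sulfatases take away, was at 8.85 and 8.89 in the wild-type and knockout pools, a difference of 0.05 that was within its robust SD of 0.10.

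**Figure D1:**
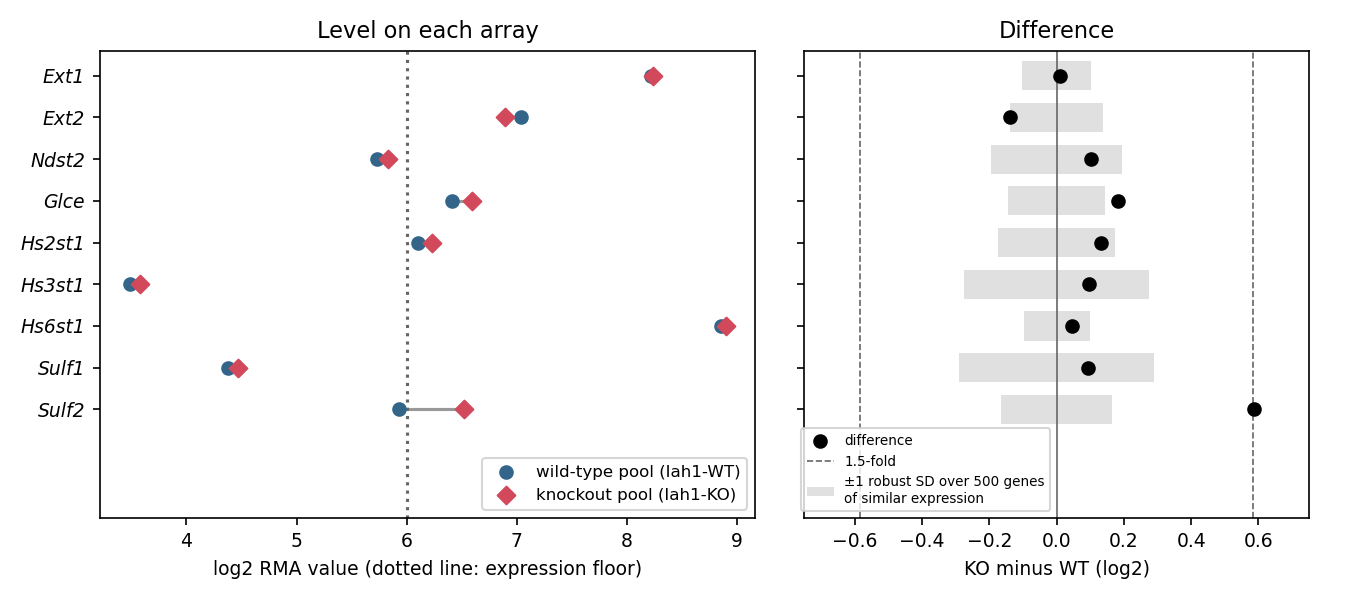
Members in pathway order. Left, log2 RMA value in the wild-type pool (circles) and the knockout pool (diamonds), with the expression floor dotted; right, knockout minus wild type (points) on the robust SD over 500 genes of similar expression (grey bars), with 1.5-fold dashed. Sulf2, at 0.59, lies well outside its grey bar, Glce just outside and Ext2 at the edge (ratio -1.01), and the 8 genes other than Sulf2 lie between -0.14 and 0.18.

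The chain is polymerised by a complex of Ext1 and Ext2, which both must be present for full activity. Ext1 was at 8.22 in the wild-type and 8.23 in the knockout pool. Ext2 was at 7.03 and 6.89, the one member that lay lower in the knockout pool (difference -0.14) with a robust SD of 0.14. The subunits thus differed by 0.15 from each other in their differences, and the Ext2 difference was about the size of its robust SD.

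Ndst2, which replaces acetyl with sulfate groups on the glucosamine units and so opens the chain to the later enzymes, was below the floor on both arrays, at 5.73 in the wild-type and 5.83 in the knockout pool. Glce, the epimerase that turns glucuronic into iduronic acid, was at 6.42 and 6.60, higher by 0.18 in the knockout pool with a robust SD of 0.14. The other probe sets of Glce pointed the other way. A dim one was at 3.05 and 2.81, and one shared with the microRNA gene Mir5133 was at 5.51 and 5.18. The mean over the pair of probe sets that name Glce alone was lower in the knockout pool by a difference of -0.03, so the direction for this gene depends on the probe set.

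Hs2st1, which sulfates the iduronic acid made by Glce, was at 6.10 in the wild-type and 6.23 in the knockout pool, a difference of 0.13 within its robust SD of 0.18. Hs3st1, which adds the rare 3-O-sulfate group of the antithrombin-binding site, was below the floor on both arrays, at 3.48 and 3.58. No background measurement was used here, and the median of all probe sets was 4.05 and 4.03 on the 2 arrays.

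Together, 8 of the 9 genes were above 0 and 1 was below, with a median difference of 0.10. Of the 6 at or above the floor, 5 were above 0 and the median was 0.09, where 52.4% of all expressed genes were above 0. One of the 6, Sulf2, was higher by at least 1.5-fold, and 0 were lower. Over all expressed genes 0.222% were higher and 0.209% lower by that much. Because the group was chosen for Sulf2, nothing is read from this count. Without Sulf2 the median of the other 8 genes was 0.09. Their differences exceeded the robust SD of their expression in 2 cases, Ext2 and Glce, where the larger ratio of difference to robust SD was 1.27 (Glce). The share of all genes beyond their own robust SD was not counted, so nothing is read from these 2 cases.

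**Figure D2:**
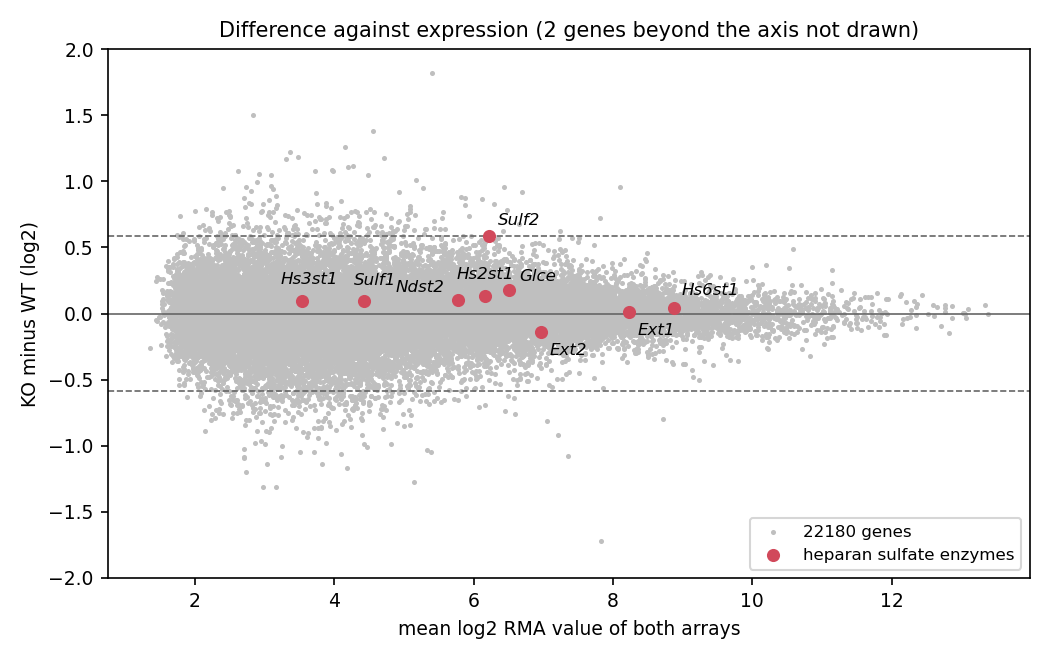
knockout minus wild type (log2) against the mean log2 RMA value for 22180 genes (grey) and the heparan sulfate enzymes (red, named), with 1.5-fold dashed; 2 genes lie beyond the axis limits of -2 and 2. Sulf2 lies at the 1.5-fold line at the edge of the cloud, and the other 8 lie inside it.

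The same scale was applied to the other genes of the pathway. With the members, the lists of linkage enzymes, further chain enzymes, precursor supply, core proteins and degradation enzymes came to 72 genes, of which 69 were measured and 45 were at or above the floor. Of the 45, 21 were above 0 and 24 below, with a median of 0.00. Sulf2 was the furthest higher of them, followed by Gusb, Slc26a2, Ids and Glce. The furthest lower were Xylt1, Slc35b3 and Sdc4. Sulf2 was the 1 gene of the 45 that reached 1.5-fold, where 0.222% of all expressed genes were higher and 0.209% lower by that much. The group was chosen for Sulf2, so nothing is read from its rank or this count. Sulf2 also passed by little. Centred on the median of all expressed genes its difference was 0.58, and after a correction for expression level 0.57, both just short of 1.5-fold.

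Of the remaining chain enzymes 12 were measured, 7 above and 5 below 0, and 3 of the 12 were at or above the floor. These 3 were above 0, as 52.4% of all expressed genes were, and Hs3st3b1 met the floor through the knockout pool alone. Extl3, which starts the chain on the linkage sugars, was at 7.48 in the wild-type and 7.64 in the knockout pool. Extl2, which can end it there, was at 6.15 and 6.21, and the 3-O-sulfotransferase gene Hs3st3b1 was at 5.91 and 6.02. The other 9, with Ndst3, Ndst4, Hs6st2 and Hs6st3 among them, were below the floor, with differences between -0.40 and 0.28.

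Linkage enzymes build the short sugar bridge to the protein that heparan sulfate shares with chondroitin sulfate. The 4 expressed genes of 7 were all below 0, as 47.6% of all expressed genes were, with a median of -0.04. The other 3 were below the floor: B3galt6 differed by 0.50, B4galt7 by 0.10 and Pxylp1 by -0.05. Over all 7, 2 were above and 5 below 0. Xylt1, the xylosyltransferase that begins the bridge, was at 7.40 in the wild-type and 7.17 in the knockout pool, a difference of -0.23 with a robust SD of 0.13. Its paralog Xylt2 was at 6.02 and 6.01. Fam20b, the kinase that phosphorylates the first xylose, was at 9.06 and 9.01, and the glucuronosyltransferase gene B3gat3 was at 6.94 and 6.90.

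All 18 listed genes that supply the sulfate donor and activated sugars were expressed, 7 above and 11 below 0, with a median of -0.04. The sulfate transporter gene Slc26a2 was at 6.31 in the wild-type and 6.59 in the knockout pool. Slc35b3, a Golgi carrier of the sulfate donor, was at 6.80 and 6.60. Slc13a1, the sulfate cotransporter of the proximal tubule, and Papss2, which makes the sulfate donor, both differed by 0.11.

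**Figure D3:**
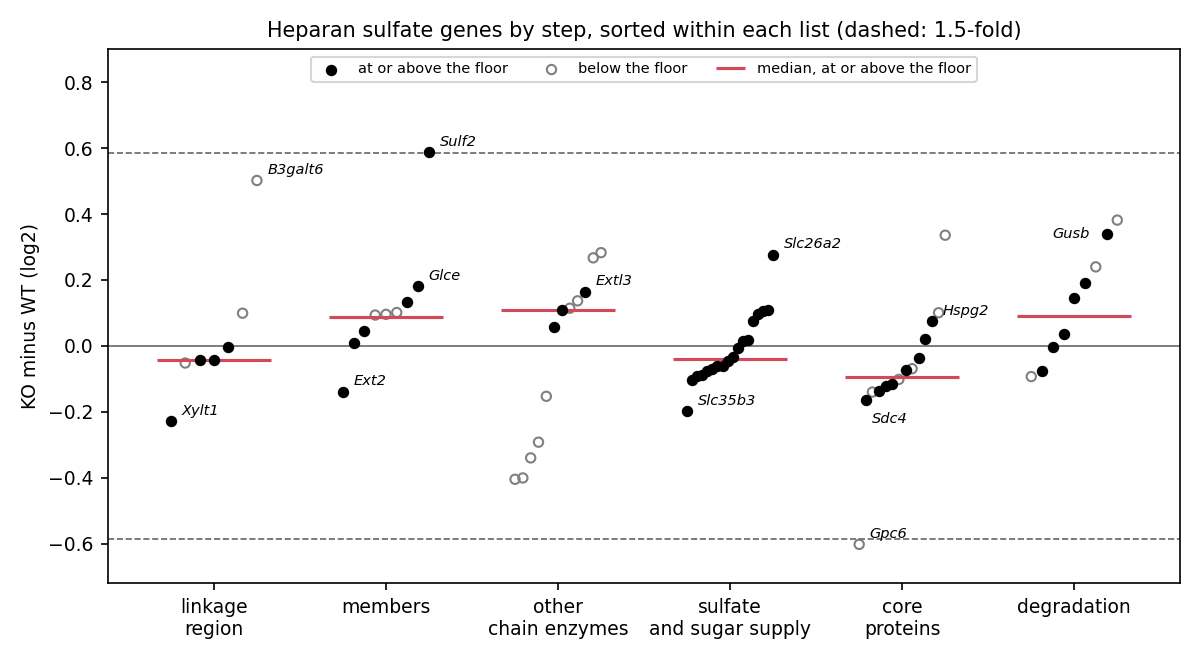
knockout minus wild type (log2) for each measured gene of 6 lists of the heparan sulfate pathway, sorted within the list; filled points are at or above the expression floor, open points below it, red lines are list medians over the filled points, and 1.5-fold is dashed. Sulf2 is the one filled point on the 1.5-fold line. The core protein list has 6 of 8 filled points below 0, where 47.6% of all expressed genes were.

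Core proteins carry the chains on which the sulfatases act. Of 14 listed genes 8 were expressed, 2 above and 6 below 0, with a median of -0.09, where 47.6% of all expressed genes were below 0. The syndecan Sdc4 was at 10.14 in the wild-type and 9.97 in the knockout pool, and Sdc3 was at 7.30 and 7.17, whereas Sdc2 was at 8.89 and 8.91. The membrane-anchored glypican Gpc4 was at 9.59 and 9.45. The robust SDs for Sdc4 and Gpc4 were 0.10 and 0.09, smaller than their differences of -0.17 and -0.14.

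Among the basement membrane carriers, perlecan (Hspg2) was at 7.06 in the wild-type and 7.14 in the knockout pool. Agrin (Agrn), the main carrier of the glomerular basement membrane, was at 7.25 and 7.18. Col18a1 was at 6.43 and 6.31, and the part-time carrier Tgfbr3 differed by -0.04. Gpc6, singled out with its values in view, was at 5.23 and 4.63, a difference of -0.60 below the floor, where robust SDs are wide (0.28). With no floor 1.42% of all 22180 genes were lower by at least 1.5-fold. Sdc1, the carrier best known for lipoprotein uptake in liver, was below the floor at 4.81 and 4.70.

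Lysosomal degradation removes the chains sugar by sugar. Of 10 listed genes 9 were measured and 6 expressed, 4 above and 2 below 0, with a median of 0.09. Over all expressed genes 52.4% were above 0. At 1.5-fold 0 of the 6 were past the threshold, where 0.222% of all expressed genes were higher and 0.209% lower, so nothing is read from this count. Gusb, the beta-glucuronidase, was at 7.61 in the wild-type and 7.95 in the knockout pool. Ids, which removes 2-O-sulfate groups, was higher by 0.19, Arsg differed by 0.15 and Sgsh by -0.08. The heparanase gene Hpse was below the floor, at 2.94 and 3.33.

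Other sulfatases, listed with Sumf1 and Sumf2, had 5 expressed genes with a median of 0.13. Of the 5, 4 were above 0, as 52.4% of all expressed genes were. Sumf1, the enzyme that makes the catalytic residue of every sulfatase, Sulf2 included, was at 7.98 and 8.05. Arsa, the arylsulfatase of the lysosome, singled out with its values in view, was below the floor at 4.68 and 5.34, a difference of 0.66 with a robust SD of 0.26. With no floor 0.996% of all 22180 genes were higher by at least 1.5-fold. Sumf2, the paralog of Sumf1, was higher by 0.26, Galns by 0.22 and Arsk by 0.13 in the knockout pool. Of the 14 measured enzymes of the sister chain chondroitin sulfate, 4 were expressed, with a median of 0.08. Over all 14, 7 were above and 7 below 0, with a median of 0.01. Csgalnact1, which starts that chain, was at 6.03 and 6.40, Chst11 was at 8.30 and 8.09, and Chsy1 was at 7.06 and 7.18. Csgalnact2, at 5.99 and 6.03, met the floor in the knockout pool alone.

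Sulf2 lies among other genes on chromosome 2, and the 5 measured protein-coding genes on each side of it in the RefSeq table were examined. Of these 10, 5 were expressed, with differences between -0.10 (Cse1l) and 0.17 (Zmynd8). Ncoa3, the next gene on one side, was at 8.58 in the wild-type and 8.65 in the knockout pool. Prex1, the next gene on the other side, was below the floor and differed by -0.18. The lowest and highest of all 10 were Slc2a10 at -0.39 and Trp53rka at 0.29, both below the floor. At 1.5-fold 0 of the 10 were past the threshold, where with no floor 0.996% of all genes were higher and 1.42% lower by that much, so nothing is read from this count. Arfgef2 and Stau1 both differed by 0.05, Eya2 by 0.20 and Trp53rkb by -0.21.

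**Figure D4:**
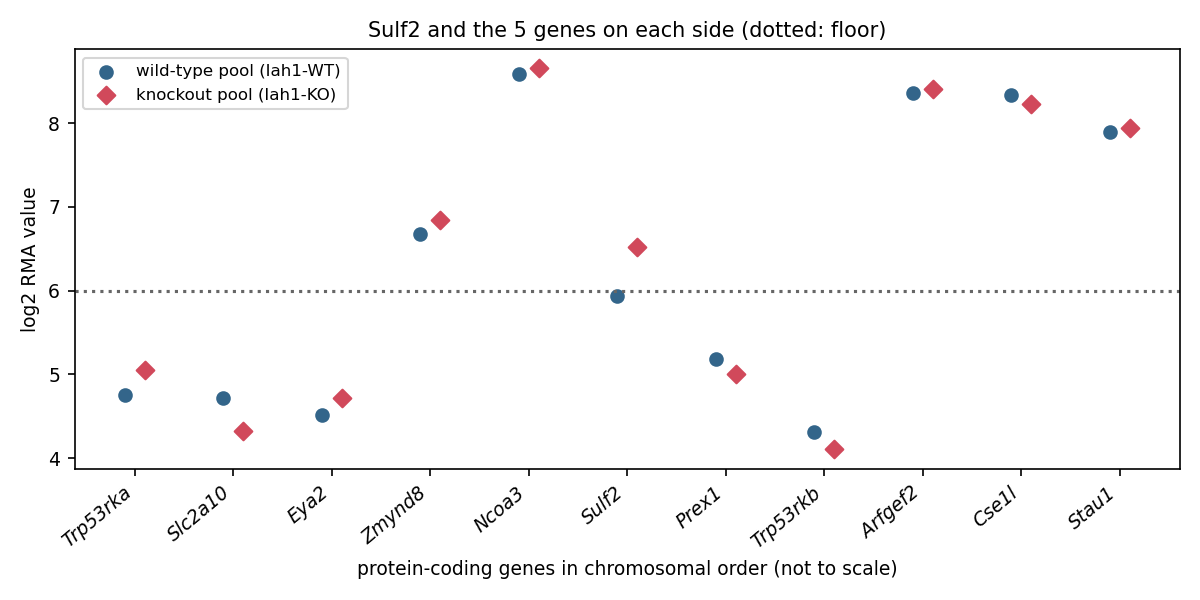
Log2 RMA value in the wild-type pool (circles) and the knockout pool (diamonds) for Sulf2 and the 5 measured protein-coding genes on each side, in chromosomal order without scale; the expression floor is dotted. The pools are 0.59 apart at Sulf2 and at most 0.17 apart at the 5 expressed neighbours.

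Growth factors and receptors that bind heparan sulfate, and genes that respond to them, were listed to set beside Sulf2. Of 35 ligand and receptor genes 20 were expressed, 9 above and 11 below 0, with a median of -0.01. Tgfb1 differed by -0.22, Bmp4 by 0.22, Fgfr1 by -0.18 and the lipoprotein receptor gene Lrp1 by 0.17. Feedback genes of FGF signalling, which depends on 6-O-sulfate groups, had a median of 0.01 over 5 genes. Among them Spry1 was at 6.31 in the wild-type and 6.04 in the knockout pool, and Etv5 at 5.90 and 6.23. Dusp6 was at 8.14 and 8.06, and Spred1 was higher by 0.07. Etv5 met the floor in the knockout pool alone, so it had to lie above 0. With no floor the median of the 10 measured FGF feedback genes was -0.05, with 4 above and 6 below 0.

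Targets of Wnt and BMP signalling had a median of -0.14 over 6 expressed genes, 5 of them below 0, as 47.6% of all expressed genes were. Smad7 met the floor in the wild-type pool alone, so it had to lie below 0. Another 1 of the 6 met it in the knockout pool alone, so it had to lie above 0. Id3 was at 6.92 and 6.53, Id4 at 6.57 and 6.32, Smad7 at 6.20 and 5.97, and Id2 at 10.60 and 10.55. With no floor the median of the 13 measured genes was -0.03.

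Marker lists of the main kidney cell types were set beside Sulf2, since in bulk tissue more cells of a type and more RNA per cell cannot be told apart. The counts of these lists stand beside 52.4% of all expressed genes above 0 and 47.6% below. Podocyte markers had 3 expressed genes of 8 measured, all above 0, with a median of 0.02 and a summed signal, on the linear scale, of 698 in the wild-type and 718 in the knockout pool. Podxl differed by 0.10, Wt1 by 0.02 and Clic5 by 0.01. Below the floor, Nphs1 differed by 0.31, Ptpro by 0.18, Cdkn1c by -0.02, Kirrel by -0.04 and Synpo by -0.15. Over all 8 podocyte markers 5 were above and 3 below 0, with a median of 0.01. Endothelial markers had 11 of 12 above 0, a median of 0.11 and sums of 3073 and 3284, with Cdh5 at 0.24, Ehd3 at 0.21, Ptprb at 0.17 and Flt1 at 0.16. Macrophage and dendritic cell markers, called macrophage markers here, had 4 of 5 expressed genes above 0 and a median of 0.11. Their sums were 1067 and 1165, with Lyz2 at 0.63, Cx3cr1 at 0.41, Csf1r at 0.11 and H2-Ab1 at 0.07. The other 5 macrophage markers were below the floor: Adgre1, which defines resident macrophages, was at 5.10 in the wild-type and 4.37 in the knockout pool, Cd68 differed by -0.23, C1qc by 0.30, C1qa by 0.04 and Itgam by -0.01. Over all 10 macrophage markers 6 were above and 4 below 0, with a median of 0.06.

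Fibroblast, mesangial and smooth muscle markers had 3 of 8 above 0, where 52.4% of all expressed genes were. Their median was -0.02 and their sums 1165 and 1166, with Tagln at -0.29, Myh11 at 0.17, Acta2 at 0.15 and Dcn at -0.12. Tagln met the floor in the wild-type pool alone, so it had to lie below 0. Proximal tubule markers were split 6 to 6 with a median of -0.02 and sums of 34454 and 34284, with Slc22a8 at 0.23, Gatm at -0.20, Slc5a12 at -0.14 and Slc5a2 at 0.11. Markers of the loop, distal tubule and collecting duct had 5 of 12 above 0, a median of -0.06 and sums of 11137 and 10860, with Atp6v1g3 at -0.81, Aqp2 at 0.49, Slc4a1 at 0.18 and Scnn1g at 0.16. The endothelial sum was higher in the knockout pool by 6.86% and that of the expressed macrophage markers by 9.18%, or by 6.91% over all 10 macrophage markers. A sum over markers weighs its brightest genes most, so its percentage and that of a single gene are not like measures. Cx3cr1 met the floor in the knockout pool alone, which favours a higher sum there. The part of cell composition in the Sulf2 difference was not tested.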

How the data were processed

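RNA from 1 pool of 3 mice per genotype was extracted with Trizol, cleaned on a column, and labelled with biotin from 100 ng, per the labels' protocols. Per the submitters' processing notes, the authors ran RMA (Affymetrix Expression Console 1.3.0), and the deposited numbers are its log2 values, one for each probe set and array. Quantile normalization in RMA hides shifts shared by most genes, and dim differences are compressed. The table held 41345 probe sets, 23521 with exactly 1 gene symbol in GEO's platform annotation. The sources used here name no genome build for the array. Start windows came from RefSeq (GRCm38.p6).

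Differences, medians, counts and robust SDs (scaled median absolute deviation) were computed in Python 3.11.15 (statsmodels 0.14.6, scipy 1.17.1, pandas 2.3.3, numpy 2.4.6), and the steps were tested on simulated data. With 1 array per genotype no test was run, so precision is limited by having 2 arrays. The members, gene lists, floor and fold were chosen with earlier results of these data known, and the motifs after the values were seen. Named are all members, all expressed chain, linkage and core genes, the 4 expressed genes (or fewer) that differ most in every other list, Iah1, and 5 neighbours on each side of Sulf2. Genes below the floor that are not members or neighbours fall outside this rule and were named with their values in view. Alternatives were a floor of log2 5, of log2 7 or none, median centring, loess (span 0.3), the mean over probe sets, and thresholds of 2-fold or 4 robust SDs.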

Additional observations from a re-analysis of the deposited data

How the results depend on the processing

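The Sulf2 difference of 0.59 was 0.58 after median centring and 0.57 after loess. Sulf2 has 1 probe set, so its mean over probe sets is the same value and checks nothing. The count of pathway genes at least 1.5-fold higher (1) was 0 with centring, loess, a floor of log2 7, a threshold of 2-fold or 4 robust SDs. The count lower (0) was 1 with a floor of log2 5 or none, where Gpc6 enters. Over all genes, 17 were higher and 16 lower. These counts were 55 and 57 with a floor of log2 5, 4 and 6 with log2 7, 221 and 316 with none, and 1 and 3 at 2-fold. With a floor of log2 7 the median of the members was 0.0096 (3 genes), of linkage enzymes -0.14 (2 genes), of chondroitin enzymes -0.0500 (2 genes) and of Wnt and BMP targets -0.0498 (1 gene). The latter was -0.031 with a floor of log2 5 or none and -0.22 as the mean over probe sets. Fewer or more genes enter each of these medians. The other 121 alternative differences and medians moved by less than the spread over genes (for medians, divided by the square root of the list size). Some of these could not move, such as the mean over probe sets of a gene with 1 probe set. Of the other members, Glce alone changed direction, at -0.03 as the mean over probe sets. It is also the only member with more than 1 probe set of a single symbol. No paired analysis was possible because each genotype has 1 array. Dim genes such as Sulf1 and Hs3st1 are limited by their signal over background.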
